A study of Saccharomyces cerevisiae with 49 samples.

Results

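Transcript levels at G1/S times were compared with those at G2/M times in a budding yeast culture released from alpha-factor arrest. The comparison used 8 of the 49 arrays of the series and 8 of the 17 arrays of the alpha-factor course. The G1/S side held the arrays at 10, 15, 70 and 120 min after release, and the G2/M side held those at 40, 90, 100 and 150 min. The times were chosen by their place in successive rounds of division about 53 min apart, a spacing that came from earlier results on the same arrays. They fall into 3 successive cycles: 10 and 15 against 40 min, 70 against 90 and 100 min, and 120 against 150 min. All 17 arrays of the course came from 1 culture of BY4741 bar1- cells. This is a MATa laboratory strain without BAR1, the protease that degrades alpha factor. Cells had been held in alpha factor at 1 ug/ml for 3 h, filtered, rinsed and returned to fresh YPD, a rich medium, to which the labels add 5 ug/ml of an agent they do not name. On each array, messenger RNA of these cells (Cy5) was hybridised beside messenger RNA of unarrested mid-log cells (Cy3). Values are log ratios of synchronized over mid-log cells, taken as log2, and a difference is G1/S side minus G2/M side.

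In budding yeast, commitment to division at Start activates the transcription factors SBF and MBF. These switch on G1 cyclins, DNA replication and repair genes and genes for bud growth. Histone genes follow in S phase, and the forkhead factors with Mcm1 and Ndd1 then drive the CLB2 cluster, which encodes mitotic cyclins and regulators of mitosis. Swi5 and related factors act next, at the passage from mitosis to G1. Mating pheromone holds a-cells in G1 before Start, so removing it starts a synchronous round.

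The 8 arrays held 4588 to 6093 values each, and their number limits the precision. Over all features, correlations between arrays of the same side were 0.36 to 0.711 for G1/S and 0.586 to 0.811 for G2/M, and those between sides were -0.009 to 0.541. Because the cycles are those of 1 culture, p-values measure the spread between successive times of that culture. Cells harvested at a side's times hold a mixture of stages, and fewer cells in a stage cannot be told apart from less RNA per cell in that stage. BAR1 and STE2, the alpha-factor receptor gene, had values on 0 of the 17 arrays. Of the other a-cell genes, MFA1, MFA2, STE6 and AGA2 had values on all 8 and ASG7 on 5. The 4 alpha-cell genes had values on 4 to 6 of the 8, between -0.45 and 0.53.

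The first question was which transcripts differ between the sides. Of 5069 features tested with limma, 361 passed an adjusted p under 0.05 (7.12%). Of these, 241 were higher at the G1/S times (4.75%) and 120 were higher at the G2/M times (2.37%). The median difference of the first group was 1.20 and that of the second -1.10, and 148 and 67 of them differed at least 2-fold. The call uses all 3 cycles, so that all 222 and 115 of them measured in each had the same sign there is a description of what was called. The 4 arrays of one side did not overlap the 4 of the other, as far as measured, for 228 of the 241 and 114 of the 120. Over all features tested this held for 505 (9.96%) and 471 (9.29%). An unadjusted p under 0.05 in limma was found for 625 of the 5069 features as higher at the G1/S times and for 650 as lower. Counts of list members at an unadjusted p are to be read beside these. Called genes with a symbol numbered 229 and 111, of which 156 and 71 belonged to none of the 33 gene lists. The purine and copper lists under the other observations are not among the 33. The count dropped to 82 (55 and 27) without the 40 min array, which is the only G2/M array of the first cycle, and to 113 (77 and 36) without the 70 min array. Without any other array it lay between 254 and 329. With ordinary least squares on the same 8 arrays, where no spread is shared between genes, 0 genes passed and 1092 had an unadjusted p under 0.05.

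**Figure D1:**
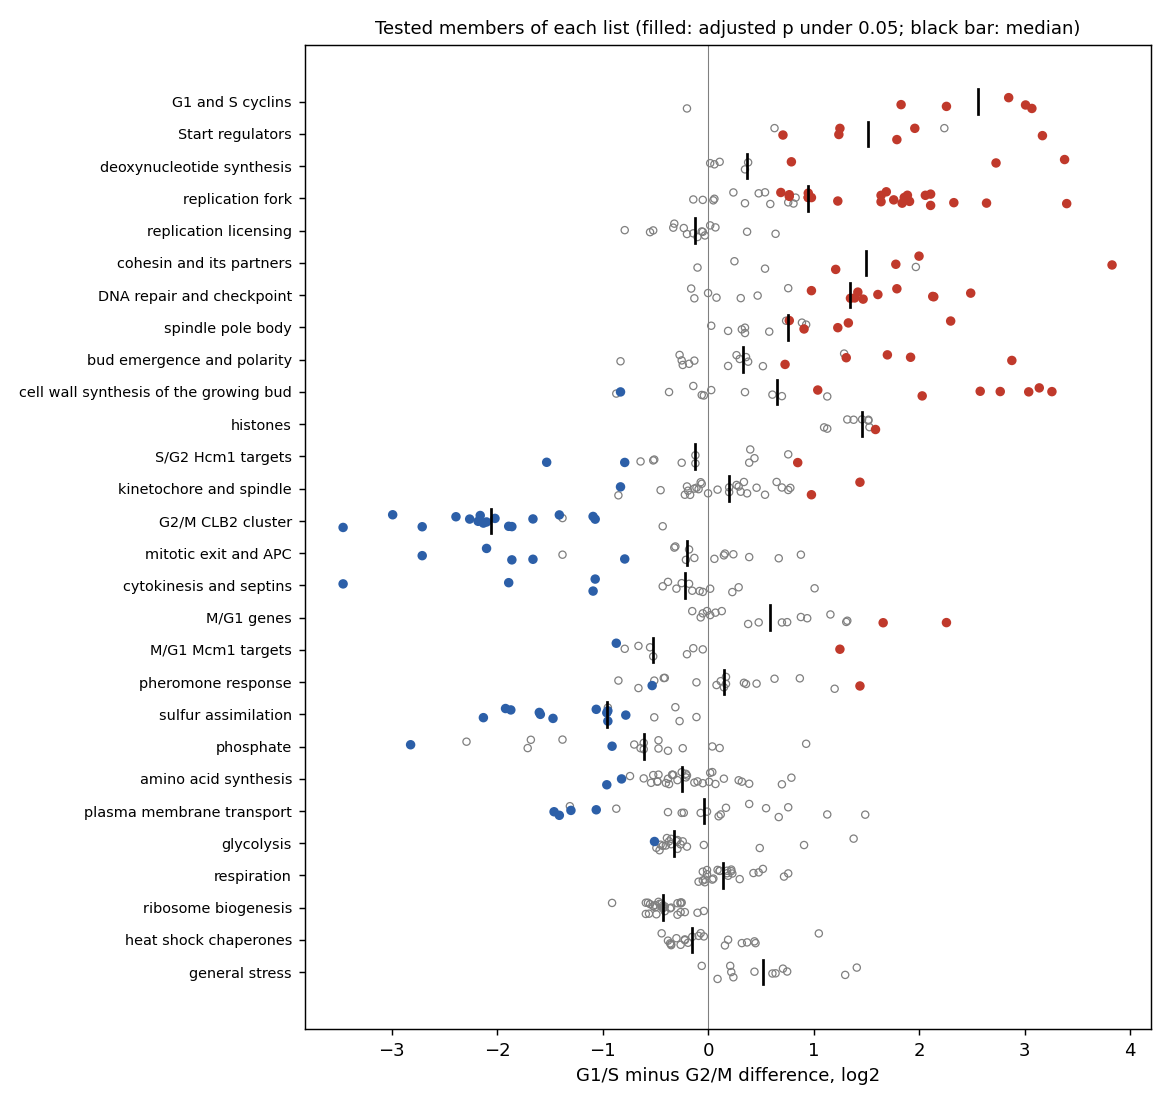
Differences between G1/S and G2/M times (log2, horizontal axis) for every tested member of each gene list, 1 point a gene. Filled red points passed the limma test as higher at G1/S times and filled blue points as higher at G2/M times, open points did not pass, and black bars are list medians, from 2.56 for the G1 and S cyclins to -2.06 for the CLB2 cluster.

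The cyclins of G1 and S phase were among the most different transcripts. CLN2 (YPL256C), a G1 cyclin that drives Start, had log2 ratios of 2.80, 1.46, 1.95 and 2.15 at 10, 15, 70 and 120 min. It had -2.11, -0.16, -0.72 and -0.25 at 40, 90, 100 and 150 min. The sides did not overlap, and the difference was 3.07 ± 0.43 (SE), or 8.38-fold, with an adjusted p of 0.00781 in limma. CLN1 (YMR199W), its partner, differed by 3.01 and reached its lowest value, -1.53, at 40 min. The S-phase cyclins CLB5 and CLB6, which trigger replication origins, differed by 1.83 and 2.85. CLB6 was uneven within the G1/S side, at 4.20, 2.17, 0.55 and 2.01, with an adjusted p of 0.0493, and its call was lost without any single array but that at 10 min. PCL2, a cyclin of the Pho85 kinase, differed by 2.26, whereas PCL1 differed by -0.20 with an adjusted p of 0.567. Of the 6 tested members of the list, 5 rose at the G1/S times, with a median difference of 2.56 against -0.05 over all features. CLN2 was the 1 member that passed without the 40 min array, and 2 passed without the 70 min array.

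CLN3 (YAL040C), the cyclin that acts upstream of SBF and MBF, ran the other way. It was -0.07, -0.53, -0.67 and -0.08 on the G1/S side and 0.59, 0.20, 0.69 and 0.43 on the G2/M side, with no overlap. Its difference was -0.87 ± 0.18 (adjusted p = 0.0307 in limma). SWI4 (YER111C), which encodes the DNA-binding subunit of SBF and like CLN3 is a target of Mcm1 in late mitosis, differed by 1.25 (adjusted p = 0.0473). Neither call held without the 15, 40 or 70 min array, and that of SWI4 was also lost without the 90, 120 or 150 min array.

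**Figure D2:**
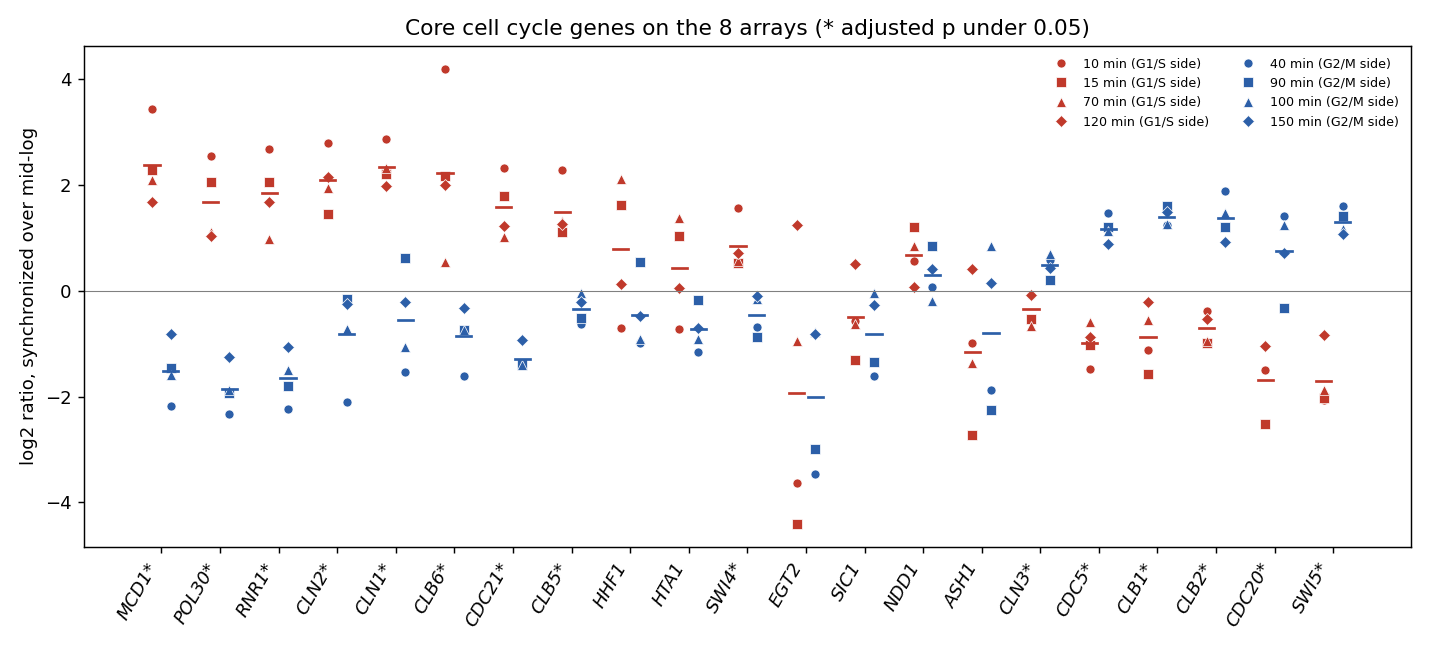
Log2 ratio of synchronized over mid-log cells (vertical axis) on each of the 8 arrays for 21 core cell cycle genes, in red for the G1/S side and blue for the G2/M side, with marker shapes for the times and horizontal lines for side means. Of the 21 genes, 9 passed as higher at G1/S times and 6 as higher at G2/M times (asterisks), and EGT2 has the widest spread within the G1/S side, from -4.41 to 1.25.

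Regulators made around Start were higher at the G1/S times for most members. TOS4 (YLR183C), which encodes a forkhead-associated domain protein bound to promoters, had 1.85, 1.97, 0.98 and 1.37 on the G1/S side and -2.56, -1.82, -1.10 and -1.05 on the G2/M side. It differed by 3.17 ± 0.39, with every G1/S array above every G2/M array. SWE1, the kinase that restrains the mitotic form of Cdc28, differed by 1.96, and HCM1, a forkhead activator of S-phase genes, by 1.79. PLM2 and OPY2 also passed, at 1.24 and 0.71. YOX1, a repressor of late mitotic genes, had a difference of 2.24 with no overlap but an adjusted p of 0.0712, and NRM1, a co-repressor of MBF, had 0.63 with an adjusted p of 0.316. In all, 6 of 8 tested members rose (median 1.52). The list had 2 calls without the 40 min array, 2 without the 70 min array and 3 without the 15 min array.

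Genes that make deoxynucleotides were split. RNR1 (YER070W), the large subunit of ribonucleotide reductase, was 2.69, 2.06, 0.98 and 1.68 at the G1/S times and -2.24, -1.80, -1.49 and -1.06 at the G2/M times. Its difference of 3.38 ± 0.38 amounted to 10.4-fold (adjusted p = 0.00401 in limma). CDC21, thymidylate synthase, differed by 2.73 and CDC8, thymidylate kinase, by 0.79. The small subunits RNR2 and RNR4 differed by 0.38 and 0.02 and did not pass, nor did DUT1, DCD1 and DFR1, at 0.35, 0.06 and 0.11. SML1 (YML058W), which encodes a protein inhibitor of ribonucleotide reductase and was outside the lists, was higher at the G2/M times by 1.70. Its values were -0.09, -0.35, -0.87 and -1.11 on the G1/S side and 1.32, 1.33, 0.74 and 0.54 on the G2/M side.

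Replication fork genes gave the largest group, with 22 of 34 tested members higher at the G1/S times and 0 higher at the G2/M times (median 0.95). POL30 (YBR088C), the sliding clamp PCNA, was 2.54, 2.05, 1.11 and 1.03 on the G1/S side and -2.33, -1.94, -1.88 and -1.26 on the G2/M side. It differed by 3.40 ± 0.38, or 10.56-fold, and its values on the G1/S side were higher in the first cycle than in the later ones. CDC45, a part of the replicative helicase, differed by 2.64, and DPB2, a subunit of DNA polymerase epsilon, by 2.33. The polymerase alpha subunit genes differed from one another: POL12 and PRI2 rose by 2.11 and 1.86, PRI1 by 0.77, and POL1 had 0.06 and did not pass. Of other fork complexes, RFA2 and RFA3 of the single-strand binding protein rose by 2.06 and 0.95. The clamp loader genes RFC1, RFC2, RFC3 and RFC5 had -0.14, 0.24, 0.48 and 0.76, and 0 of these 4 passed. The fork-protection genes MRC1, TOF1 and CSM3 rose by 1.76, 1.91 and 1.69. The 22 calls numbered 9 without the 40 min array and 13 without the 70 min array.

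Genes that license origins before S phase had no calls. Of 16 tested, 0 passed in limma, 2 had an unadjusted p under 0.05, 1 in each direction, and the median was -0.12. The helicase subunit genes MCM3, MCM4, MCM5, MCM6 and MCM7 had differences of -0.14, -0.52, -0.20, -0.55 and -0.79, with adjusted p of 0.233 or higher. CDC7, the kinase that fires licensed origins, had 0.64 with an adjusted p of 0.0661.

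Cohesin, the ring that holds sister chromatids together, is loaded around S phase. Its subunit gene MCD1 (YDL003W) had the largest positive difference of all features tested. It was 3.44, 2.28, 2.09 and 1.68 at 10, 15, 70 and 120 min and -2.18, -1.46, -1.59 and -0.82 at 40, 90, 100 and 150 min. The difference was 3.83 ± 0.44, or 14.24-fold (adjusted p = 0.00453 in limma), with the sides far apart on all 8 arrays. The subunits IRR1 and SMC3 rose by 2.00 and 1.78, and ECO1, which acetylates cohesin, rose by 1.21. The loader genes SCC2 and SCC4 had -0.10 and 0.25 and did not pass. PDS1, the securin that guards cohesin until anaphase, had 1.97 with an adjusted p of 0.0677. The list counted 4 of 8 higher and 0 lower (median 1.49), and 2 passed without the 40 min array.

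DNA repair and checkpoint genes had 10 of 17 tested higher at the G1/S times and 0 lower (median 1.35). The mismatch repair genes MSH6 and PMS1 rose by 2.49 and 2.14, and RAD53, the checkpoint kinase, by 2.13. MSH6 (YDR097C) was 1.74, 1.34, 0.97 and 0.93 on the G1/S side and -1.52, -1.99, -1.02 and -0.81 on the G2/M side. DUN1, RAD5, UNG1, OGG1, EXO1, RDH54 and RAD17 rose by 0.98 to 1.79. RAD9, SGS1, MEC3 and RAD30 lay between -0.16 and 0.31 and did not pass. The list had 6 calls without the 40 min array, as without the 70 min array.

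The spindle pole body, the yeast centrosome, duplicates at the same stage. Of its 14 tested genes, 5 rose at the G1/S times and 0 at the G2/M times (median 0.75). TUB4 (YLR212C), gamma-tubulin, was 0.99, 1.24, 0.73 and 0.24 against -0.61, -0.67, -0.69 and -0.46, a difference of 1.33. SPC29, of the core of the organelle, differed by 2.30 over 7 arrays, since it had no value at 70 min, and BBP1 by 1.23. These calls numbered 0 without the 40 min array, 0 without the 70 min array and 3 without the 100 min array.

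Genes for bud growth showed large differences in a part of each list. Among 18 tested genes of bud emergence and polarity, 5 rose and 0 fell (median 0.33). AXL2 (YIL140W), a landmark of axial budding, was 1.87, 1.08, 1.14 and 1.66 against -2.40, -0.99, -1.12 and -0.80, a difference of 2.88. RSR1, the GTPase that reads such landmarks, differed by 1.92 and GIC2, an effector of Cdc42, by 1.70, whereas CDC42 had 0.19 and did not pass. This count was 2 without the 40, 120 or 150 min array and 3 without the 70 min array. Among 18 tested cell wall genes, 7 rose and 1 fell (median 0.65). CSI2 (YOL007C), whose product takes part in cell wall chitin, was 2.57, 2.42, 2.08 and 1.68 against -1.91, -0.38, -1.29 and -0.50, a difference of 3.26. SVS1, PRY2, CRH1, MNN1 and OCH1, which encode secreted, wall or mannosylation proteins, rose by 2.03 to 3.14, and GAS5, a glucan-modifying enzyme, fell by 0.83. Cell wall calls were 4 higher and 0 lower without the 40 min array, as without the 70 min array, and GAS5 also lost its call without the 120 or 150 min array.

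Histone genes divided the G1/S side. All 9 had positive differences, 1.10 to 1.58 with a median of 1.46, and 8 had an unadjusted p under 0.05, but 1 passed the adjusted test and 0 had sides that did not overlap. HTA1 (YDR225W), a histone H2A gene, was -0.73, 1.03, 1.38 and 0.06 at 10, 15, 70 and 120 min and -1.15, -0.17, -0.91 and -0.70 at 40, 90, 100 and 150 min. The low G1/S arrays were those at 10 and 120 min, and the high ones those at 15 and 70 min. HHF1 (YBR009C), a histone H4 gene, had the same low and high arrays, at -0.70, 1.63, 2.11 and 0.12, with an adjusted p of 0.160. HHT2, a histone H3 gene, was the one that passed, at 1.58 with an adjusted p of 0.0424. The median of the 9 was -0.70 at 10 min, 1.35 at 15 min, 1.72 at 70 min and 0.12 at 120 min. HHO1 departed from this, at 0.67, 1.32, 0.54 and 0.03 on the same arrays. CLN2, by contrast, was above 1 on all 4 arrays. With the arrays of a side and cycle averaged into 3 pairs, 8 of the 9 passed. There were 7 calls with the array letter (T or B in the array name) as a covariate and 4 with the 10 and 15 min arrays averaged. Without the 10 min array 5 histone genes passed, whereas 0 passed without the 40, 70, 100, 120 or 150 min array, and HHT2 did not pass without the 90 min array either. Each core histone is encoded by a pair of near-identical genes, so oligonucleotides may not separate the copies.

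**Figure D3:**
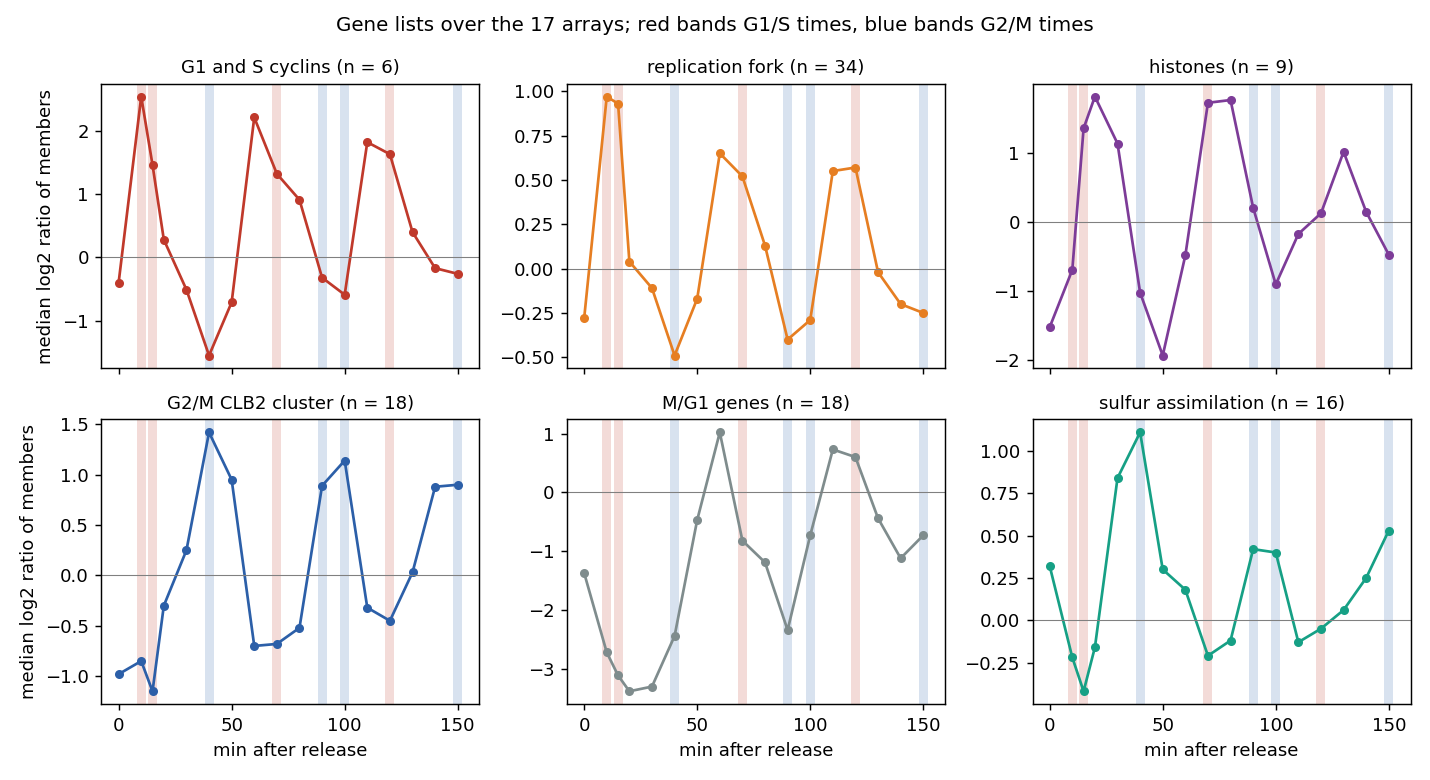
Median log2 ratio of the tested members of 6 gene lists (vertical axes, own scale in each panel) on all 17 alpha-factor arrays against minutes after release, with red bands at the G1/S times and blue bands at the G2/M times. The histone median is low at 10 min (-0.70) and high at 15 min (1.35), and the median of the M/G1 genes stays below -2 from 10 to 40 min and rises to 1.02 at 60 min.

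Genes of S/G2 and of the mitotic apparatus had calls in both directions, to be read beside the 7.12% of all features. Of 13 tested targets of Hcm1, 1 rose at the G1/S times and 2 at the G2/M times (median -0.12). BIM1, a microtubule plus-end protein, rose by 0.85. ASE1 (YOR058C), which bundles microtubules at the spindle midzone, fell by 1.53, with -0.21, -0.59, -0.49 and -0.07 against 1.40, 1.04, 1.44 and 0.85. TEM1, the GTPase of the mitotic exit network, fell by 0.79. Of 29 kinetochore and spindle genes, 2 rose and 1 fell (median 0.20). These were MIF2, a centromere-binding protein, at 1.44, BUB3, a spindle checkpoint protein, at 0.98, and KIP1, a spindle kinesin, at -0.83. NDD1, the co-activator of the CLB2 cluster, had 0.39 with an adjusted p of 0.446, and its value was highest at 15 min, at 1.20. The 3 calls among Hcm1 targets and the 3 among kinetochore genes were each reduced to 0 without the 40 min array. With the 70 min array left out, 0 Hcm1 targets passed, and 1 kinetochore gene passed as higher and 2 as lower. A single Hcm1 target passed without the 15, 120 or 150 min array.

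The CLB2 cluster was the main group on the G2/M side, with 16 of 18 tested members higher there and 0 higher at the G1/S times (median -2.06). SWI5 (YDR146C), the transcription factor of the M/G1 transition, was -2.07, -2.02, -1.87 and -0.83 on the G1/S side and 1.60, 1.42, 1.17 and 1.07 on the G2/M side. Its difference was -2.99 ± 0.28, or 7.96-fold, with an adjusted p of 0.00355 in limma. The highest G1/S value, at 120 min, still lay below all G2/M values. CLB2 (YPR119W), the main mitotic cyclin, was -0.38, -0.98, -0.95 and -0.54 against 1.88, 1.20, 1.47 and 0.92, a difference of -2.16. CLB1 had -2.13, with 1.25 to 1.61 on the G2/M side. CDC5 (YMR001C), the polo kinase, was -1.48, -1.02, -0.58 and -0.87 against 1.47, 1.21, 1.13 and 0.88, a difference of -2.10. The standard deviations of these 4 genes over the 4 G2/M arrays were 0.18 to 0.41.

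Other members of the cluster act in anaphase, cytokinesis and at the cell surface. HOF1 (YMR032W), which links the contractile ring to septum formation, had the largest negative difference of all features tested, -3.46 ± 0.74 over 7 arrays, with no value at 70 min. Its values of -1.78, -3.36 and -0.68 at 10, 15 and 120 min stood against 2.15, 0.55, 1.45 and 1.10. CDC20, the activator of the anaphase-promoting complex, also lacked a value at 70 min and differed by -2.71 (adjusted p = 0.0437), with -0.32 at 90 min as its one G2/M value below 0. ALK1, HST3, MMR1 and SUR7 differed by -2.18, -2.26, -2.39 and -2.02. DBF2, a mitotic exit kinase, and BUD3, a bud-site protein, had -1.38 and -0.43 with adjusted p of 0.0503 and 0.0539. The cluster had 8 calls without the 40 min array and 9 without the 70 min array. The calls of SWI5, CLB1, CLB2 and CDC5 held whichever array was left out, while those of HOF1 and CDC20 were lost without the 10 or 40 min array, among others.

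Genes of mitotic exit and of cytokinesis overlap with the cluster. All 5 calls among 18 tested mitotic exit and anaphase-promoting complex genes (median -0.20) were CDC20, CDC5, MOB1, SPO12 and TEM1. Of these, TEM1 belonged to the Hcm1 targets and the rest to the CLB2 cluster. MOB1, a co-activator of Dbf2, was -0.55, -1.14, -1.28 and -0.49 against 1.27, 1.03, 0.72 and 0.63. CDC14, the phosphatase of mitotic exit, had -0.13, and CDH1 and NET1 had -0.21 and -0.32, with adjusted p of 0.250 or higher. The 4 calls among 16 cytokinesis and septin genes (median -0.22) were MYO1, IQG1, HOF1 and BUD4, all of the CLB2 cluster. The septin genes CDC3, CDC10, CDC11, CDC12 and SHS1 lay between -0.38 and -0.05 and did not pass. Mitotic exit calls higher at G2/M times numbered 2 without the 40, 70, 120 or 150 min array and 3 without the 10, 15 or 100 min array, and 1 gene passed as higher at G1/S times without the 120 or the 150 min array. Cytokinesis calls numbered 0 without the 40 min array and 1 without the 70 min array.

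Among 18 tested genes of the passage from mitosis to G1, 2 rose at the G1/S times and 0 fell (median 0.59). This is to be read beside the 4.75% of all features that rose. They were PCL2, by 2.26, which is also counted among the G1 and S cyclins, and DSE2, by 1.66. The list median of the difference was 0.01 in cycle 1, 0.47 in cycle 2 and 1.39 in cycle 3. DSE2 (YHR143W), a daughter-cell glucanase that helps mother and daughter separate, was -2.59 and -3.18 at 10 and 15 min, -0.57 at 70 min and 0.62 at 120 min. On the G2/M side it was -3.95 at 40 min, -2.75 and -2.29 at 90 and 100 min and -1.46 at 150 min. The sides overlapped, while within each cycle the G1/S arrays were higher. EGT2 (YNL327W), also of cell separation, was -3.64, -4.41, -0.95 and 1.25 against -3.47, -2.99, -0.78 and -0.81, a difference of 0.70 with an adjusted p of 0.493. SIC1, the inhibitor of the S-phase kinase, and ASH1, the daughter-specific repressor of mating type switching, had 0.48 and -0.15 and did not pass. The ASH1 difference was 0.09, 0.14 and 0.36 without the 15, 70 and 100 min array. The list had 1 call without the 70 min array and 3 without the 15, 40 or 100 min array.

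Pheromone response genes were examined because the first cycle starts from the arrest. At 0 min AGA1 was 5.37, FIG2 4.88 and MFA1 3.03. At 10 min they were 1.09, 0.43 and 1.56, and at 15 min -0.25, 0.00 and -1.28. The first-cycle difference was 1.99 for AGA1 and 2.73 for MFA1, against 0.12 and -0.27 in cycle 3. The median of the tested members was 0.28, 0.04 and -0.14 in cycles 1, 2 and 3. Some members went the other way, such as STE6, at -0.86 and -2.75 at 10 and 15 min and -0.63 at 40 min. Of 19 tested members, PRM10 rose by 1.44 and MSG5 fell by 0.53, and 9 members had too few values to be tested. These calls, 1 each way, are to be read beside 4.75% higher and 2.37% lower of all features. Among those 9, FIG1 had 4.72 at 0 min and 3.79 at 10 min. PRM10 did not pass without the 40, 70, 120 or 150 min array, and MSG5 lost its call with each of the 8 arrays left out in turn. The heat shock genes HSP104 and SSA4 stood at 2.34 and 2.72 at 10 min and at -0.09 and -0.01 at 15 min. The median of their list was no higher on the 10 min array (0.78) than in the arrested cells of the 0 min array (0.83). This median dropped to -0.01 on the 15 min array, and the 120 min array of cycle 3 had 0.87. Of 21 heat shock and 12 general stress genes, 0 passed in limma, with 3 and 1 at an unadjusted p under 0.05. The part of residual pheromone response and of filtering in the first-cycle differences was not tested.

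Sulfur assimilation genes were higher at the G2/M times, with 11 of 16 tested members called so and 0 called higher at the G1/S times (median -0.95). SAM1 (YLR180W), which makes S-adenosylmethionine, was -1.96, -1.77, -1.21 and -1.30 against 1.06, 0.19, -0.10 and 0.00, a difference of -1.87. MET6, methionine synthase, differed by -1.92, MMP1, a permease for S-methylmethionine, by -2.13, and MET3, ATP sulfurylase, by -1.59. The difference of MET6 was -3.23 in cycle 1 and -1.30 in cycle 2, and it was nearer to 0 in cycle 3. The 40 min array held the highest MET6 value, 1.48, and the 10 and 15 min arrays the lowest, -1.64 and -1.85. Calls in the list numbered 1 without the 40 min array, 3 without the 70 min array, 6 without the 15 min array and 7 without the 10 min array.

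Phosphate, transport, amino acid and glycolysis genes had calls at the G2/M times, to be set beside the 2.37% of all features. PHO3 (YBR092C), an acid phosphatase, was -1.37, -1.57, -1.63 and -0.41 against 2.15, -0.54, 2.36 and 1.70, a difference of -2.82. The sides overlapped through the 90 min value. PHO84, the phosphate transporter, fell by 0.91, and these were the 2 calls of 17 phosphate genes (median -0.61). PHO5, PHO11 and PHO12, whose sequences resemble each other, had -2.29, -1.71 and -1.68 and did not pass. Neither phosphate call held without the 10, 15, 40 or 70 min array, and 3 members passed without the 90 min array. Of 20 plasma membrane transport genes, 4 fell: CTR1, the copper transporter, by 1.46, PMP1 by 1.41, PMA1, the proton pump, by 1.30 and MUP1, a methionine permease, by 1.06. HIS4 and HIS5, of histidine synthesis, fell by 0.96 and 0.82 and were the calls among 33 amino acid genes (median -0.25). Calls among transport and amino acid genes were 0 and 0 without the 40 min array, as without the 70 min array. Of 20 glycolysis genes PFK1 fell by 0.51, and its call was lost without any single array but that at 10 min.

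Ribosomal protein genes had differences between -0.57 and 0.31. Of 131 tested, 0 passed in limma, 1 had an unadjusted p under 0.05 as higher and 44 as lower, and the median was -0.28. The sides did not overlap for 43 of them as higher at the G2/M times, beside 9.29% of all features. With quantile normalization, which moves all values of an array, 14 passed as higher at the G2/M times, and with no cycle term 6. Of 29 ribosome biogenesis genes 0 passed, 10 had an unadjusted p under 0.05 as lower, and all differences lay between -0.91 and -0.04. Of 24 respiration genes 0 passed and 3 had an unadjusted p under 0.05 as higher (median 0.15). Over all 5069 features tested, 625 had an unadjusted p under 0.05 as higher and 650 as lower.

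Outside the lists, the 10 largest calls each way with non-overlapping sides included further chromatin and surface genes. ASF1 (YJL115W), a histone chaperone, was 1.46, 1.13, 0.24 and 0.29 against -2.42, -2.10, -1.72 and -1.55, a difference of 2.63. SPT21, needed for transcription of histone genes, differed by 2.26. Both were high at 10 min, at 1.46 and 2.36, where the histone median was -0.70 and HHO1 of that list was 0.67. TOS6, a cell wall protein, YPS3, an aspartic protease of the cell surface, ERP3, of the secretory p24 family, and UBP15, a ubiquitin protease, differed by 2.78, 2.16, 2.21 and 2.16. The other 4 were ESC8, RBH2, MLO50 and SPO16, at 1.99 to 2.50. At the G2/M times ADE17, of purine synthesis, and SFG1, a factor of filamentous growth, were higher by 2.45 and 2.37. SFG1 was -1.65, -1.83, -1.29 and -0.47 against 0.94, 1.24, 1.62 and 1.01. FRK1, AIM20, NCE102, TPO3, SHM2, FRE1 and SKN1 fell by 1.55 to 1.96. Of the 82 genes with calls named by rule, 34 also passed without the 40 min array and 39 without the 70 min array, against 65 to 72 without another array. For 33 of them the call held whichever of the 8 arrays was left out. These included CLN2, RNR1, CDC21, POL30, CDC45, DPB2, MCD1, MSH6, RAD53, TOS4, SWE1, AXL2, RSR1, CSI2, SVS1 and ASF1 on the G1/S side, and SWI5, CLB1, CLB2, CDC5, MOB1, SAM1, SML1, ADE17, SHM2 and SFG1 on the G2/M side. The other 49 lost the call without the 40 min array, the 70 min array or either.

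The next question was whether the difference changed over the 3 cycles. Medians of the genes higher at G1/S times were 1.59, 1.02 and 0.88 in cycles 1, 2 and 3. Those of the genes higher at G2/M times were -1.31, -1.08 and -0.79. CLB2 cluster medians were -2.60, -1.82 and -1.29, and those of the fork genes 1.30, 0.85 and 0.69. Histone medians were 1.39, 1.95 and 0.76, highest in cycle 2. With the first cycle left out, 134 of 5549 features passed, 93 higher at G1/S times and 41 higher at G2/M times. Of the 361 genes, 359 could be tested there and 125 of them passed. The 134 calls held 10 fork genes, 10 genes of the CLB2 cluster, 2 sulfur genes and 0 histone genes. The comparison of cycles has 1 or 2 arrays a side in each, and the change over cycles was not tested.

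**Figure D4:**
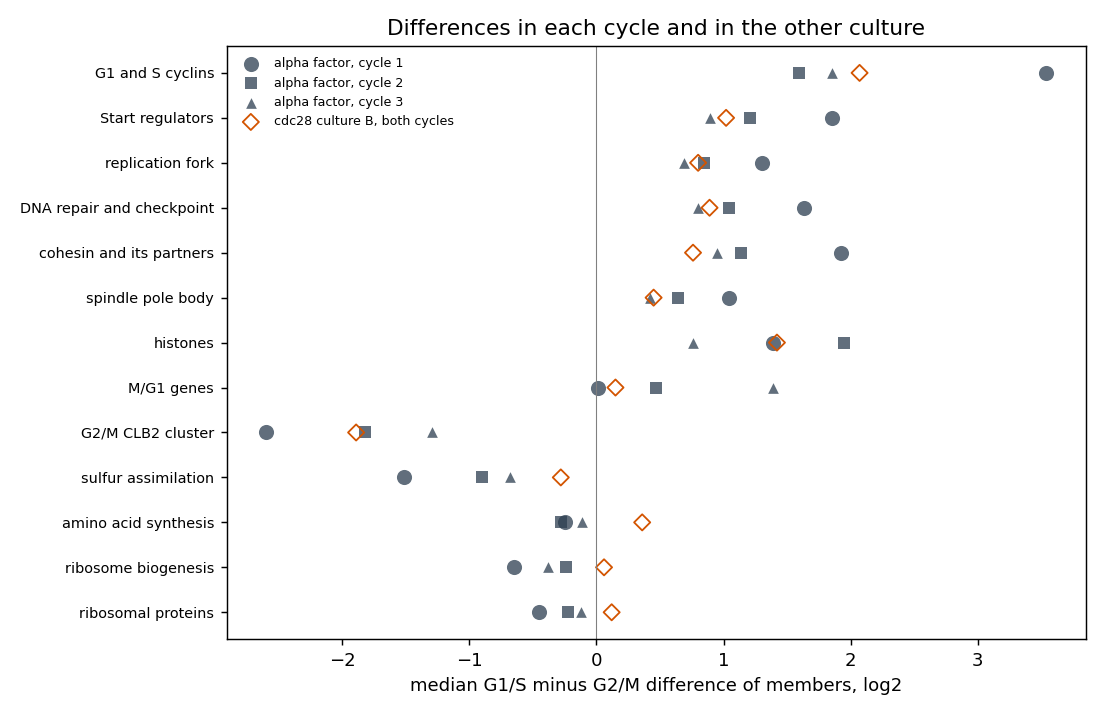
Median G1/S minus G2/M difference (log2, horizontal axis) of the tested members of 13 gene lists, in filled symbols for each of the 3 alpha-factor cycles and in open diamonds for cdc28 culture B. The CLB2 cluster goes from -2.60 to -1.29 over the cycles while the M/G1 genes go from 0.01 to 1.39, and the sulfur genes have -0.28 in culture B.

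Time after release was not balanced between the sides. Mean times were 53.75 min for G1/S and 95 min for G2/M, and within the cycles the G2/M times were 27.5, 25 and 30 min later. The side and the time shared 95.1% of their variance within cycles, so a linear trend and the side cannot be told apart there. With both in the fit, 0 genes passed and 194 had an unadjusted p under 0.05. With a linear trend in place of the cycles, 442 passed, of which 331 were among the 361.

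Another 4 arrays of the same culture lie beside the chosen times and took no part in the fit. They are at 20 and 60 min on the G1/S side and at 50 and 140 min on the G2/M side. Those at 50, 60 and 140 min each share the array number of a fitted array of their own side and differ from it in the letter. Agreement in sign with the fitted arrays is therefore not evidence from clearly separate arrays, nor from a separate culture. Of the genes called higher at G1/S times, 228 of 233 were higher there too, with a median of 0.71. Of those called higher at G2/M times, 115 of 118 were lower, with a median of -0.63, against 2453 of 4842 positive over all features. By themselves these arrays gave 0 calls of 5011 features in limma (0%), with 227 at an unadjusted p under 0.05. Without the 20 min array there were 63 calls and without the 60 min array 12. Values at 20 and 60 min could lie far apart: CLN2 was -0.05 at 20 min and 2.19 at 60 min, and MCD1 was -0.01 and 2.74. At 20 min the histone median was 1.81 and at 60 min -0.49.

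**Figure D5:**
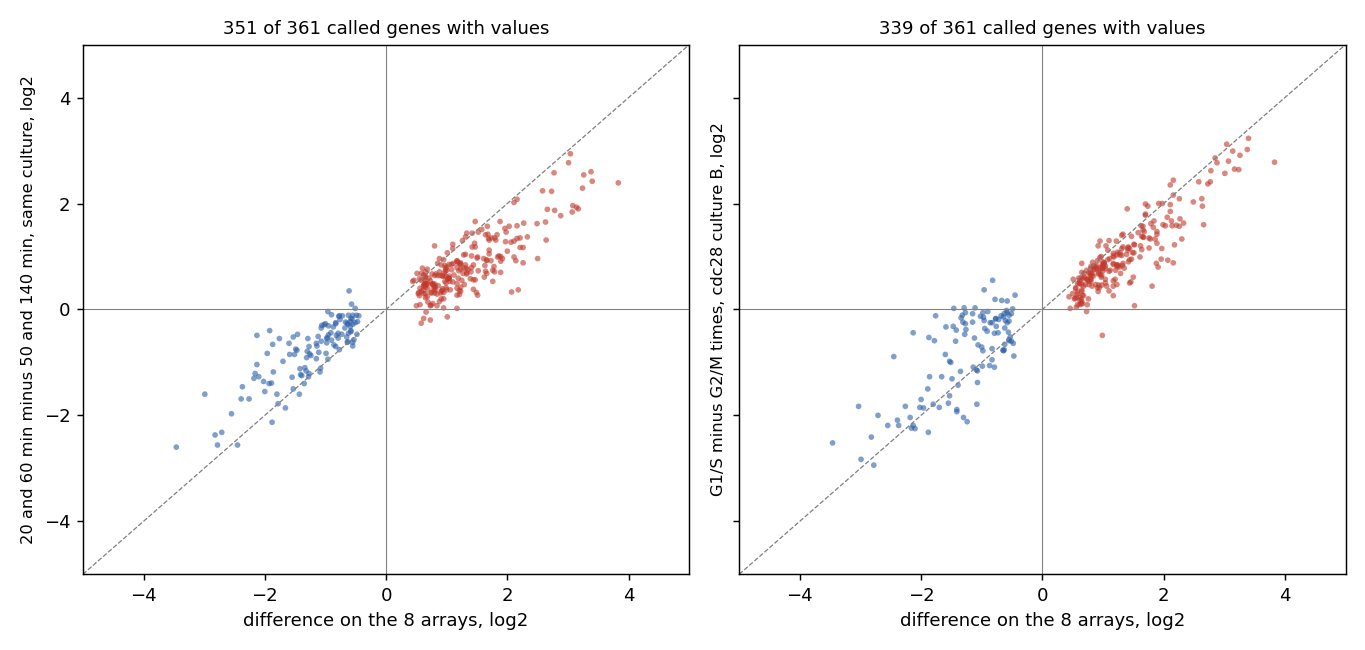
Differences of the called genes on the 8 arrays (log2, horizontal axes) against the difference on 4 other arrays of the same culture (left) and in cdc28 culture B (right), red for genes higher at G1/S times and blue for genes higher at G2/M times, with a dashed line of equality. Of the blue points, 115 of 118 lie below 0 in the left panel and 104 of 114 in the right panel.

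The last comparison set the alpha-factor culture against cdc28 culture B. The strain carries cdc28-13, a heat-sensitive form of the main cell cycle kinase gene, and was released from a G1 arrest made by heat. Its G1/S arrays were those at 30, 45, 150 and 165 min and its G2/M arrays those at 90, 105, 210 and 225 min, chosen from earlier results of the same kind. Strain, arrest, temperature and culture cannot be told apart. Of the genes called in the alpha-factor culture, 223 of 225 and 104 of 114 had the same sign in culture B. Over all features, 2306 of 4739 were positive there. The medians of the genes called higher at G1/S times were 1.17 in the alpha-factor culture and 0.87 in B. Those of the genes called higher at G2/M times were -1.11 and -0.60. These genes were picked by their alpha-factor values, which by itself favours a larger difference there than in B. CLN2 differed by 2.80 in B, POL30 by 3.23, CLB2 by -2.24 and SWI5 by -2.83. In the test of the difference between the cultures, 0 of 4739 features passed in limma (0%) and 686 had an unadjusted p under 0.05. Leaving out the 120 or the 150 min array, either of which takes the third alpha-factor cycle out of the difference, gave 10 calls. Sulfur genes had medians of -0.95 and -0.28, and 8 of 14 had an unadjusted p under 0.05. Genes of amino acid synthesis had -0.27 and 0.36 with 14 of 32, and ribosomal protein genes -0.29 and 0.12 with 74 of 123. CLB2 cluster genes had -2.10 and -1.89 with 1 of 17, and histone genes 1.46 and 1.42 with 0 of 9. HIS4 differed by -0.96 in the alpha-factor culture and by 0.37 in B, with an adjusted p of 0.257 for the difference between them.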

How the data were processed

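Dual-colour oligonucleotide arrays of 1 alpha-factor culture were compared. The deposited table holds log ratios, used as log2 of Cy5 (synchronized) over Cy3 (mid-log cells), the dyes per the labels, with no swap. The table names neither log base nor centring nor direction. Scanner, background correction and any normalization: not given in the sources used here. Array medians lay between -0.069 and 0.0066.

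Of 6258 probes, 5570 carried 1 gene symbol in the platform annotation, 0 several and 688 none. Symbols can be old. Probes of 29 genes were averaged, leaving 6228 features, of which 1159 had too few values to be tested. RefSeq supplied locus tags for 5535 genes.

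Each array was centred on its median. Features with at least 3 values on each side were fitted in limma 3.58.1 (R 4.3.3) with a side term and cycle as a fixed block, which left 4 residual and 3.58 prior degrees of freedom. P-values were two-sided and adjusted by Benjamini-Hochberg over all features, with a call at an adjusted p under 0.05. Culture B was compared by an interaction over 16 arrays with cycle within culture as a block, and the 4 other arrays were fitted with no block. The code was tested on simulated data. Replicate numbers name arrays and pair nothing; the block is the cycle.

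The sides, the 33 gene lists and the tests were chosen with earlier results of these data known, so calls in the direction a list's name implies are not independent evidence. Genes were named by rule: the core list, the 3 largest calls each way in each list, and the 10 largest calls each way outside the lists with a symbol, values on all 8 arrays and non-overlapping sides. Other members were named after their values were seen, to describe their list.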

Additional observations from a re-analysis of the deposited data

Results flagged for a closer look

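Among the 88 genes named by rule, 170 sides with 4 values were examined for an array set apart from the other 3, and 6 were found. Chance alone sets apart about 1 in 20. CDC21 was -0.93 at 150 min, against -1.41 to -1.39 on the other G2/M arrays. PFK1 was 0.46 at 150 min, against 0.18 to 0.21. SWI5 was -0.83 at 120 min, against -2.07 to -1.87 on the other G1/S arrays. SWE1 was -1.33 at 40 min, against -0.61 to -0.52. MIF2 was 0.26 at 90 min, against -0.43 to -0.35. SPT21 was 2.36 at 10 min, against 1.00 to 1.12. In each gene the sides did not overlap with the array set apart included.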

How the results depend on the processing

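Leaving out 1 array moved the calls higher at G1/S times between 55 and 220 and those higher at G2/M times between 27 and 109. The count of 361 calls (241 and 120) was 254 to 329 without the 10, 15, 90, 100, 120 or 150 min array, 82 (55 and 27) without the 40 min array and 113 (77 and 36) without the 70 min array. By construction, removing the 40 min array takes the first cycle out of the blocked difference, and removing the 70 min array takes out the second. Removing the 120 or the 150 min array takes out the third, so either gave 254 (173 and 81). Leaving out the first cycle gave 134 (93 and 41). A cycle block with linear time gave 0 (0 and 0), with the collinearity given above. Ordinary least squares without moderation gave 0 (0 and 0). Quantile normalization raised the calls at G2/M times to 224, with 524 in all, of which 358 were among the 361. With no replicate block there were 500 calls, 338 of them among the 361. Averaging the arrays of a side and cycle into 3 pairs, with cycle as the replicate block, gave 413. Of the 361, 337 could be tested there and 302 of them passed. The other settings gave 338 to 463 calls, including 338 with the 10 and 15 min arrays averaged into 1, a setting chosen after seeing the data. Between the cultures, quantile normalization gave 8 calls and leaving out an array 0 to 10. The 4 other arrays gave 0 to 63 calls when an array was left out. Among named genes, 14 values changed sign. ASH1, which is not called, was 0.44 with linear time in place of the cycles, 3.65 with both, and between -0.56 and 0.36 with an array left out (0.09, 0.14 and 0.36 without the 15, 70 and 100 min array). The rest were in the fit with both cycle and time: CLN1 -0.85, NDD1 -0.58, SVS1 -0.04, PRY2 -1.46, TEM1 0.13, MIF2 -0.24, PRM10 -1.11, PHO3 2.47 and UBP15 -0.96, each with an adjusted p of 1. The cause of changes not explained by construction was not tested. Of the other values of named genes, 1422 kept their direction and side of the threshold, 395 lost the call and 6 gained it.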

Other observations

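Purine and one-carbon genes formed a further group on the G2/M side. This list was put together after the values were seen, so its count is a description. Of 19 tested members, 15 were called higher at the G2/M times and 0 lower, with a median difference of -1.11. SHM2 (YLR058C), the cytosolic serine hydroxymethyltransferase that feeds one-carbon units into purines, was -0.40, -0.46, -0.27 and -0.23 at 10, 15, 70 and 120 min. It was 1.27, 1.75, 1.32 and 1.62 at 40, 90, 100 and 150 min, and the sides lay far apart with little spread within either. ADE17, of the last steps to inosine monophosphate, differed by -2.45, ADE13, adenylosuccinate lyase, by -1.42 and MTD1, a folate dehydrogenase, by -1.34. GCV1, GCV2 and GCV3, of the glycine cleavage complex, differed by -1.27, -1.43 and -0.77. ADE16 and SHM1, the isozymes of ADE17 and SHM2, had -0.20 and -0.16 and did not pass. ADE16 and ADE17 are similar in sequence, so oligonucleotides may not separate them fully.

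Over cycles 1, 2 and 3 the list medians were -1.18, -1.05 and -0.79. SHM2 differed by -1.70, -1.80 and -1.85 in the same order, ADE13 by -1.41, -1.61 and -1.19 and GCV1 by -1.14, -1.21 and -1.55. Members with a smaller difference in cycle 3 than in cycle 1 included ADE12, at -1.44 and -0.74, and ADE2, at -1.52 and -0.79. On the 4 other arrays of the culture SHM2 differed by -1.78 and ADE17 by -2.56. In cdc28 culture B the differences were -0.59 for SHM2, -0.39 for ADE13, -0.06 for GCV1 and 0.03 for ADE12. Of 18 members measured in both cultures, 15 had an unadjusted p under 0.05 for the difference between cultures and 0 passed the adjustment. Over all features it was 686 of 4739. The list was put together after the alpha-factor values were seen, and these are 1 side of this comparison. The count of 15 is therefore a description too. ADE13 had the lowest adjusted p of all features, 0.0689. On the 8 arrays, 5 members passed without that at 40 min and 7 without that at 70 min.

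A pair of copper uptake genes, also picked after seeing values, was lower at the G1/S times. CTR1 (YPR124W) was -2.18, -2.27, -1.48 and -0.86 at the G1/S times and -0.04, 0.14, -0.36 and -0.27 at the G2/M times. FRE1, a copper and iron reductase, was -2.25, -2.02, -1.33 and -0.82 against 0.73, 0.37, -0.03 and -0.18. Differences were -2.19 and -2.86 in cycle 1 and -0.60 and -0.64 in cycle 3. The other 3 tested, CTR2, FRE7 and MAC1, had differences of 0.34, 0.38 and 0.24 and did not pass, and the median of the 5 was 0.24. Neither CTR1 nor FRE1 passed without the 40 or the 70 min array, and FRE1 did not pass without the 15 or the 90 min array either.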
